A study of Mus musculus with 26 samples.

Results

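The genes described here were 41 genes of the cell cycle and of DNA replication, 15 that act around S phase and 26 that act in mitosis, in mouse liver RNA-seq. They were chosen by name as known parts of the 2 programmes. Earlier results of these data were known then, so counts of members called describe this list only. Rows of the estimated count table were matched to the members by Ensembl gene ID. All 41 were found among the 55642 genes of the table, and all 41 passed the filter on low counts that 17104 genes passed. Livers came from wildtype mice on control chow (n = 5) and from 3 groups fed CDAHFD, a choline-deficient high-fat diet whose protein is replaced by amino acids, for 2 weeks. These were wildtype (n = 6), Mtarc1 heterozygous knockout (n = 7) and Mtarc1 homozygous knockout (n = 8) mice. No knockout was kept on chow, so the genotypes were compared on CDAHFD only. The labels used here give no strain, sex or age, and do not say how the knockout allele was made. Samples carry a number within their group and are named by it below ("heterozygous liver 4"). The labels do not say that each is a separate animal, so p-values reflect the spread among samples, which may be technical.

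Most hepatocytes of an adult liver rest outside the cell cycle and can re-enter it after injury or loss of tissue. On entry, E2F factors released from RB-family proteins switch on cyclin E and the genes that license and copy DNA. Later, the MuvB complex with B-MYB and FOXM1 switches on the cyclins, kinases and spindle proteins of mitosis. In resting cells the DREAM complex, which shares its MuvB core, holds many genes of both programmes down. It reaches the mitotic ones largely through a promoter element called CHR, often beside CCAAT boxes, and the S-phase ones largely through E2F sites.

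These elements are shown in 4 member promoters, because their frequency differed between the 2 classes of members. RefSeq promoters on GRCm38.p6, another build than that of the counts, covered 34 of the 41 members. Each runs from 250 bases before the gene's start to 50 after it. The members printed are those of each class with the lowest p for the diet difference among those that hold a motif. Each stretch runs from 150 bases before to 30 after the start, 5′ to 3′ on the gene's strand. Capitals mark CCAAT boxes (CCAAT, or ATTGG on the other strand), CHR elements (TTTGAA or TTCGAA) and E2F sites, full (TTTGGCGC, TTTCGCGC, TTTCCCGC or TTTGCCGC) or as a shorter core, the same letters without the first T, so that each full site contains a core.
Rrm2, plus strand, chr12:24708104-24708283: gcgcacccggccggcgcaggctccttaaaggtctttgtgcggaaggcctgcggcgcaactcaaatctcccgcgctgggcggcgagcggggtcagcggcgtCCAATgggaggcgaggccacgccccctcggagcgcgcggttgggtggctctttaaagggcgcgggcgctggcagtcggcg
Mcm6, minus strand, chr1:128359676-128359855: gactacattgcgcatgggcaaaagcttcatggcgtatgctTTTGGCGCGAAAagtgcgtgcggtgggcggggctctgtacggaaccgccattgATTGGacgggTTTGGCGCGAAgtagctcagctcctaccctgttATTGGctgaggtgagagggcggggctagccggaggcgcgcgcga
Ccnb2, minus strand, chr9:70421525-70421704: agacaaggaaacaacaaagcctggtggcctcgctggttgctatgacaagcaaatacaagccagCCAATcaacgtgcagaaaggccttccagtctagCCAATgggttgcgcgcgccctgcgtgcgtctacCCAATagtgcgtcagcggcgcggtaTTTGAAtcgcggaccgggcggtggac
Ccnb1, minus strand, chr13:100786457-100786636: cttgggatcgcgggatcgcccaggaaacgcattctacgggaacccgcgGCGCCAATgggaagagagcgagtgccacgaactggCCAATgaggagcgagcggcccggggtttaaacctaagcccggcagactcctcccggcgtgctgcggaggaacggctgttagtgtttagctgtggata
The Ccnb2 stretch held 3 CCAAT boxes upstream of a CHR element, and the Mcm6 stretch held runs of overlapping E2F letters. Ccnb1 had CCAAT boxes and a short E2F core that overlaps the first of them. The 34 members had 36 promoters, and a gene was counted if any of its promoters held the motif on either strand. A CHR element occurred in 16 of the 21 mitotic members covered and in 2 of the 13 S-phase members, against 21.7% of the 27025 genes in the table (19.2% of its 32851 promoters). A CHR element together with a CCAAT box occurred in the same counts of members, 16 and 2, against 8.61% of all genes there. A full E2F site occurred in 6 of the 13 S-phase members (Cdc6, Cdt1, Mcm3, Mcm5, Mcm6 and Mcm7) and in 1 mitotic member, Cdk1, against 2.6% of all genes there. The E2F core occurred in 8 S-phase and 3 mitotic members, against 10.9%. CCAAT boxes alone were found in 8 of 13 S-phase and 18 of 21 mitotic members, against 41.1%. A match is a run of letters in this window, and binding was not measured here.

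Levels are CPM, a gene's counts relative to the total of its library, with library sizes scaled by TMM, which corrects for differences in RNA composition. There were 19.73 to 29.91 M counts (M, mega counts) per library. Mtarc1, the targeted gene, matched the labels: mean CPM was 305 ± 40.2 (SD, n = 5) on chow, 235 ± 40.6 (n = 6) in wildtype livers on CDAHFD, 161 ± 33.7 with 1 knockout allele (n = 7) and 48.7 ± 10.4 with both alleles knocked out (n = 8). The homozygous mean was 20.7% of the wildtype mean on the same diet (two-sided exact permutation p = 0.000333). Hepatocyte markers summed to between 60700 and 122000 CPM in every library, and none of the 8 was at 0.

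Wildtype livers on CDAHFD carried higher levels of nearly every member than wildtype livers on chow. By edgeR's quasi-likelihood test, 40 of the 41 rose (adjusted p under 0.05 over all genes tested), 14 of 15 S-phase and 26 of 26 mitotic members, while 14.8% of all genes rose and 12.2% fell. The median log2 fold change was 1.18 (2.26-fold) for S-phase members and 2.16 (4.48-fold) for mitotic members, against -0.01 for all genes tested. In 34 of 41 members every wildtype CDAHFD liver lay above every chow liver, as did 7.95% of all genes. The 7 whose groups overlapped were Ccne1, Mcm4, Mcm7, Pcna, Melk, Cenpa and Kif23. In bulk tissue, fewer or more cells of a type and less or more RNA per cell cannot be told apart.

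**Figure D1:**
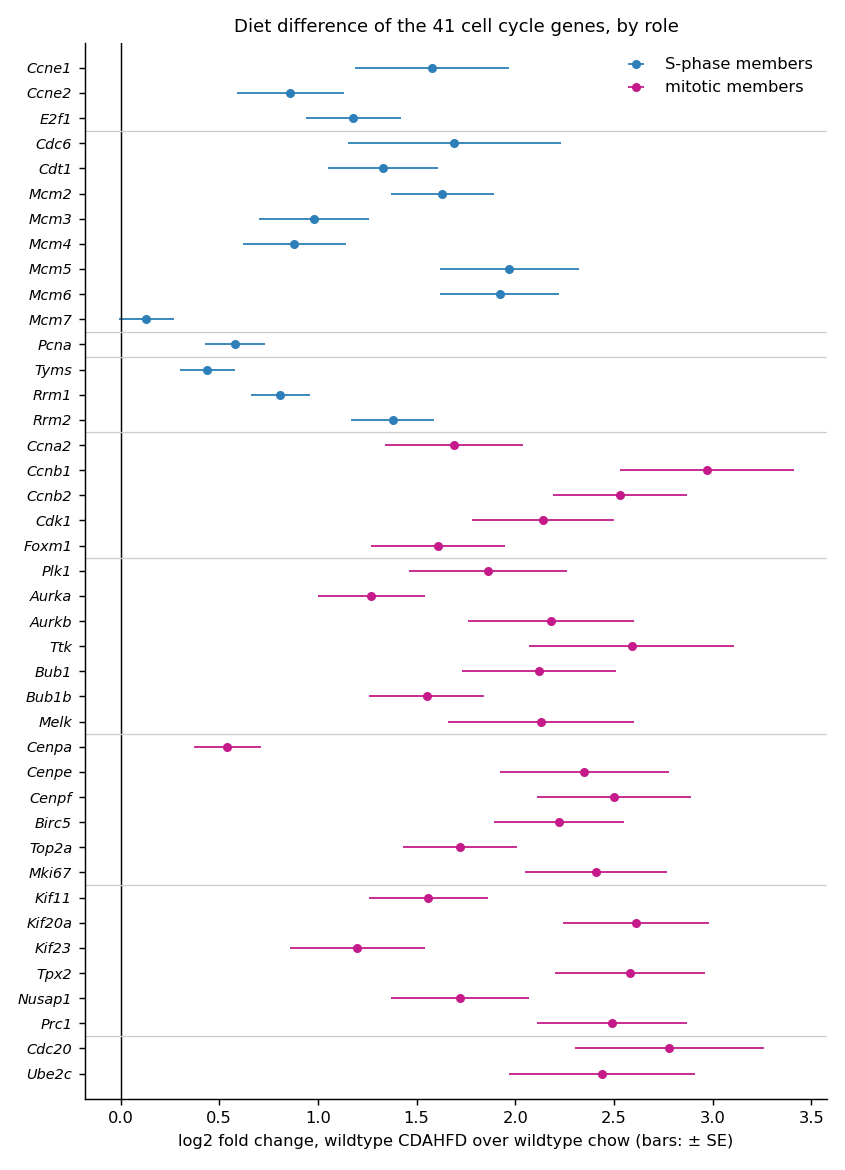
Log2 fold change of each member in wildtype livers on CDAHFD over wildtype livers on chow (x axis; points are edgeR estimates, bars ± SE), ordered by role with grey lines between roles. S-phase members (blue) lie between 0.13 and 1.97, and mitotic members (magenta) between 0.54 and 2.97.

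Among the genes that control entry into S phase, E2f1, a transcription factor of S-phase genes, had 2.44, 1.66, 2.41, 3.02 and 3.22 CPM in the 5 chow livers. The 6 wildtype CDAHFD livers had 4.36 to 7.36 CPM with a median of 5.47. The groups did not overlap, and E2f1 rose 2.26-fold (log2 1.18 ± 0.24 SE, adjusted p = 0.000622). Ccne2, a cyclin that partners CDK2, had 1.15, 1.27, 1.07, 1.86 and 1.85 CPM on chow and 1.88 to 3.43 (median 2.43) on CDAHFD. The lowest CDAHFD liver stood just above the highest chow liver, and the gene rose 1.82-fold (log2 0.86 ± 0.27, adjusted p = 0.0175). Its relative Ccne1 rose by 1.58 ± 0.39 on the log2 scale, with chow liver 1 at 1.38 CPM inside the CDAHFD range and the other 4 chow livers at or below 0.481.

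The licensing genes load the MCM helicase onto origins. Of these 8, 7 rose, with log2 fold changes from 0.88 (Mcm4) to 1.97 (Mcm5), and Cdc6 and Cdt1, which load the helicase, at 1.69 ± 0.54 and 1.33 ± 0.28. Mcm6, a helicase subunit, had 4.37, 5.07, 4.70, 5.23 and 3.49 CPM in chow livers and 9.07 to 24.4 (median 16.8) in wildtype CDAHFD livers. Every CDAHFD liver was above every chow liver, and Mcm6 rose 3.78-fold (log2 1.92 ± 0.30, adjusted p = 3.23e-05).

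Mcm7, which sits in the same helicase ring, was the only member that was not called. It had 14.2, 20.4, 16.6, 17.1 and 19.9 CPM on chow and 16.3 to 23 (median 19.1) on CDAHFD, and the groups overlapped along most of their range. Its log2 fold change was 0.13 ± 0.14 (adjusted p = 0.531). The other 5 helicase subunits, Mcm2 to Mcm6, all rose by at least 0.88 on the same scale. The difference between Mcm7 and its partners was not itself tested.

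Pcna, the sliding clamp of DNA polymerases, had 35.7, 30.4, 33.9, 24.7 and 22.8 CPM on chow and 35.2 to 54.9 (median 41.9) on CDAHFD. Only the lowest CDAHFD liver fell below the highest chow liver, and Pcna rose 1.5-fold (log2 0.58 ± 0.15, adjusted p = 0.005). Ribonucleotide reductase makes the deoxynucleotides for replication from its large subunit RRM1 and small subunit RRM2. Rrm1 had 8.65, 8.23, 9.57, 8.39 and 8.77 CPM on chow and 12.1 to 18.2 (median 14.9) on CDAHFD, a rise of 1.76-fold (log2 0.81 ± 0.15, adjusted p = 0.000147). Rrm2 had 4.79, 3.85, 3.10, 3.47 and 3.80 CPM on chow and 8.43 to 13.3 (median 9.59) on CDAHFD, a rise of 2.60-fold (log2 1.38 ± 0.21, adjusted p = 2.37e-05). Neither subunit's groups overlapped. Tyms, which makes thymidylate, rose least of the called members, by 0.44 ± 0.14 (adjusted p = 0.0208).

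All 5 cyclins, kinase and factor of mitotic entry rose. Ccnb2, a B-type cyclin that drives entry into mitosis with CDK1, had 1.06, 0.926, 0.909, 2.06 and 2.01 CPM on chow and 5.86 to 11.3 (median 7.93) on CDAHFD. The lowest CDAHFD liver was far above the highest chow liver, and Ccnb2 rose 5.79-fold (log2 2.53 ± 0.34, adjusted p = 6.22e-06, the lowest of the members). Ccna2, the cyclin of S phase and G2, had 1.80, 2.29, 2.08, 4.87 and 3.06 CPM on chow and 5.43 to 13.1 (median 8.91) on CDAHFD. Chow liver 4 came closest to the CDAHFD range, and the rise was 3.23-fold (log2 1.69 ± 0.35, adjusted p = 0.000623). Ccnb1 had the largest log2 fold change of the members, 2.97 ± 0.44 (7.81-fold), and Cdk1 and Foxm1 rose by 2.14 ± 0.36 and 1.61 ± 0.34.

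All 7 mitotic and checkpoint kinases rose, from 1.27 (Aurka) to 2.59 (Ttk) on the log2 scale. Plk1, a kinase of centrosomes and of mitotic entry, had 1.57, 1.71, 1.18, 1.81 and 3.01 CPM on chow and 4.36 to 10.6 (median 6.77) on CDAHFD, without overlap (log2 1.86 ± 0.40, adjusted p = 0.00115). Aurka, a spindle pole kinase, had 1.75, 2.14, 2.14, 2.16 and 2.69 CPM on chow and 3.20 to 7.29 (median 5.17) on CDAHFD, also without overlap (log2 1.27 ± 0.27, adjusted p = 0.000788). The checkpoint kinase Ttk rested on only 2 to 7 counts in each chow liver, Melk on 4 to 8 and Bub1 on 6 to 9, so the sizes of their rises are imprecise.

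Of the 6 centromere and chromosome genes, all rose, and Cenpa, the centromeric histone, rose least of all mitotic members. Cenpa had 12.1, 8.82, 9.14, 10.8 and 12.5 CPM on chow and 11.9 to 22 (median 15.6) on CDAHFD, with 2 CDAHFD livers below the highest chow liver (log2 0.54 ± 0.17, adjusted p = 0.0204). Mki67, the proliferation antigen that coats mitotic chromosomes, had 4.01, 3.36, 3.37, 6.63 and 4.70 CPM on chow and 16.5 to 36.9 (median 23) on CDAHFD. Its groups lay wide apart, with a rise of 5.32-fold (log2 2.41 ± 0.36, adjusted p = 2.56e-05). Cenpe, Cenpf, Birc5 and Top2a rose by 1.72 (Top2a) to 2.50 (Cenpf).

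The 6 spindle and cytokinesis genes rose by 1.2 (Kif23) to 2.61 (Kif20a). Kif20a, a kinesin of the central spindle, had 1.11, 1.12, 0.962, 1.76 and 1.58 CPM on chow and 3.55 to 11.5 (median 8.41) on CDAHFD. Tpx2, which activates Aurora A on the spindle, had 0.783, 1.27, 0.748, 1.91 and 1.64 CPM on chow and 3.97 to 11.5 (median 7.76) on CDAHFD. Neither gene's groups overlapped, and the rises were 6.12-fold and 5.97-fold (log2 2.61 ± 0.37 and 2.58 ± 0.38, edgeR adjusted p = 1.17e-05 and 1.6e-05). The mitotic exit genes act with the anaphase-promoting complex. Cdc20, its activator, had 1.61, 1.36, 3.05, 2.86 and 2.38 CPM on chow and 5.99 to 26.9 (median 15.3) on CDAHFD (log2 2.78 ± 0.48, adjusted p = 0.000138). Ube2c, its ubiquitin-conjugating enzyme, had 1.29, 0.974, 1.5, 2.46 and 1.90 CPM on chow and 4.83 to 16.9 (median 8.02) on CDAHFD (log2 2.44 ± 0.47, adjusted p = 0.000361). Both were without overlap.

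Library numbers fall into 2 series, one of 9 libraries (1 chow) and one of 17 libraries (4 chow), and the labels do not say what the series are. Within the larger series 36 of 41 members rose, as did 7.66% of all genes. Within the smaller, with a single chow liver, 2 of 41 were called higher, as were 1.63% of all genes, and 40 of 41 estimates were above 0. Over all 21 CDAHFD livers of any genotype, every liver was above every chow liver for 22 members, 8 S-phase and 14 mitotic, as for 3.23% of all genes.

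**Figure D2:**
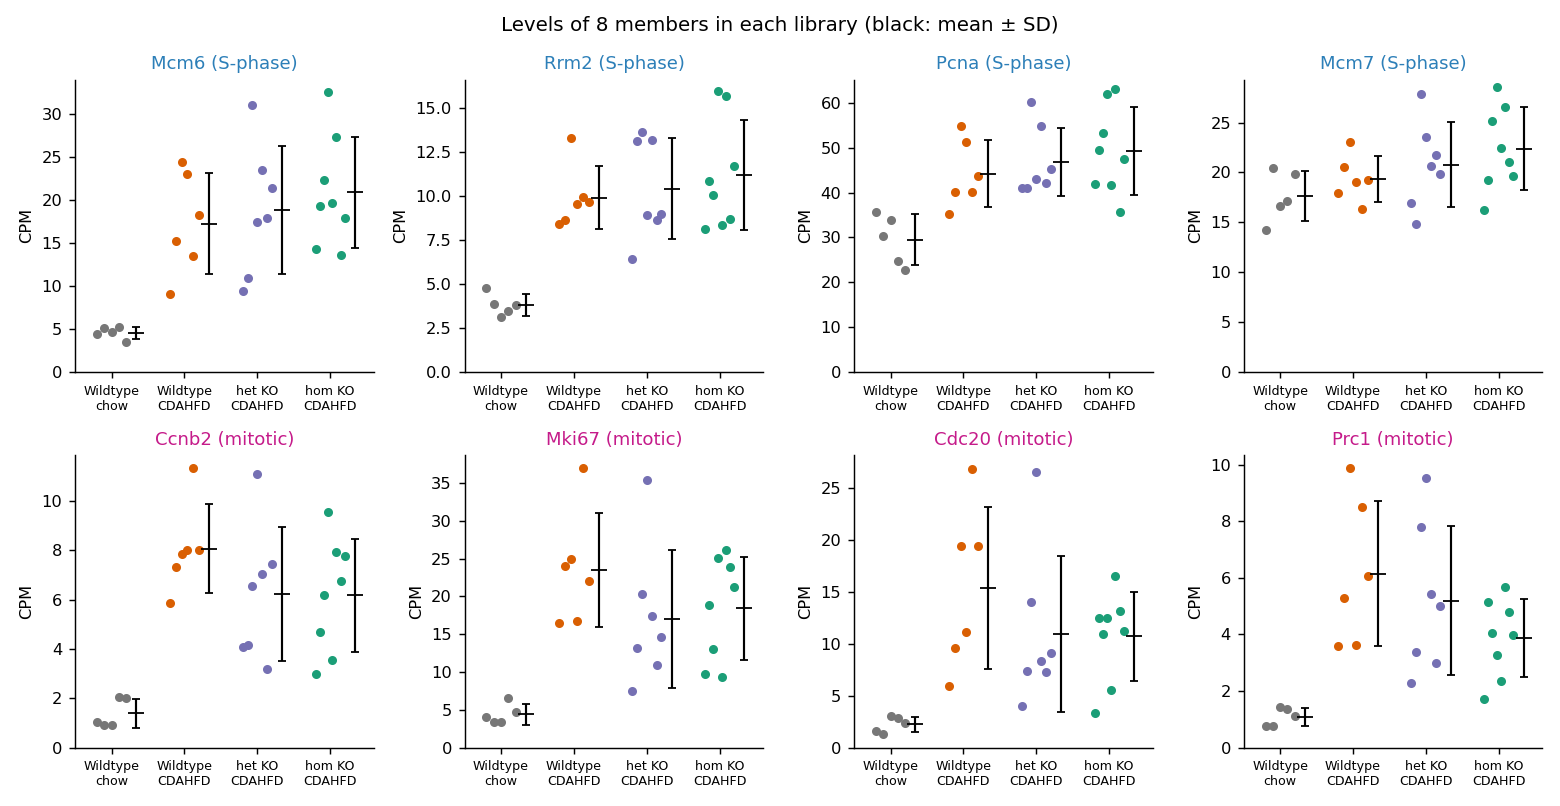
CPM of 4 S-phase members (top) and 4 mitotic members (bottom) in every library of the 4 groups; points are libraries, black bars mean ± SD, and each y axis starts at 0. Mcm7 overlaps between chow and CDAHFD, while Ccnb2, Mki67, Cdc20 and Prc1 have their highest group mean in wildtype livers on CDAHFD and Mcm6, Rrm2, Pcna and Mcm7 in homozygous livers.

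Between genotypes on CDAHFD no member passed the test. For homozygous against wildtype livers, 0 of 41 members were called by edgeR, by DESeq2 or by limma voom, and 1 had an unadjusted edgeR p under 0.05. Of all genes, 0.00585% were called, which is Mtarc1 alone, and 9.97% had an unadjusted p under 0.05. For heterozygous against wildtype livers, 0 members and 0.0% of all genes were called, with 1 member and 8.44% of all genes at an unadjusted p under 0.05. For homozygous against heterozygous livers, 0 members were called, against 0.00585% of all genes, and none had an unadjusted p under 0.05, against 7.13%. DESeq2 called 61 genes (0.465%), 2 genes (0.0117%) and 17 genes (0.106%) in these comparisons, with 0 members in each.

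The direction of the estimates differed between the S-phase and mitotic members. In homozygous against wildtype livers, 14 of 15 S-phase estimates were above 0 (median log2 0.26) and 26 of 26 mitotic estimates were below 0 (median -0.35). Over all genes 51.6% of estimates were above 0 and 48.4% below, with a median of 0.01. In heterozygous against wildtype livers, 14 of 15 S-phase estimates were above 0 (median 0.10) and 26 of 26 mitotic estimates below 0 (median -0.37), with 48.7% of all genes above 0 and 51.3% below. Both comparisons use the same 6 wildtype livers, so the second is no independent repeat of the first. Members also moved together from liver to liver, so their shared sign is not a count of separate observations.

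**Figure D3:**
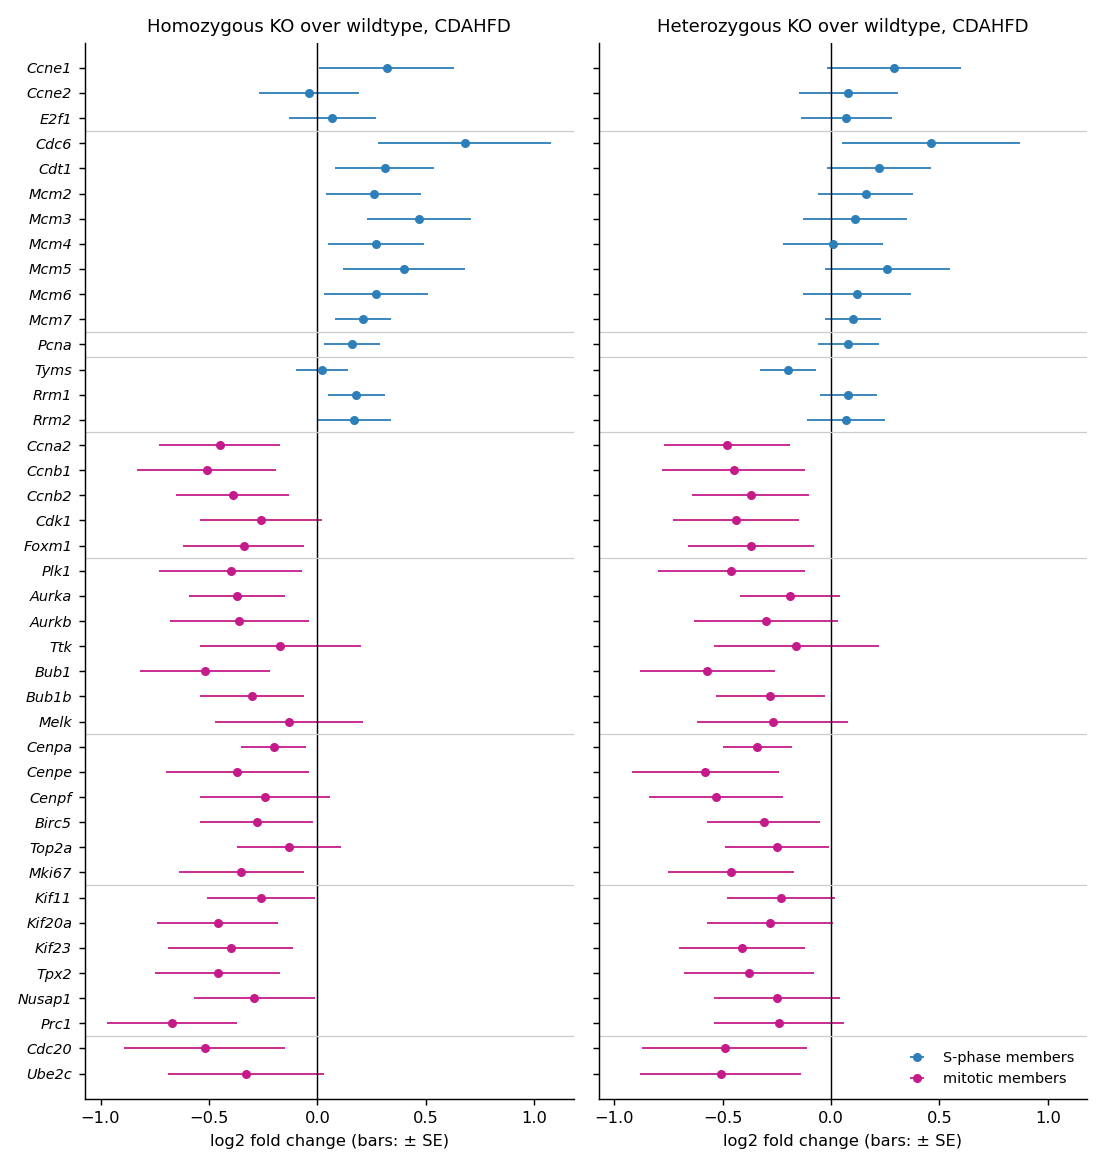
Log2 fold change of each member in homozygous (left) and heterozygous (right) livers over wildtype livers, all on CDAHFD (points are edgeR estimates, bars ± SE), in the order of roles. S-phase members (blue) lie mostly right of 0 and mitotic members (magenta) left of 0, and none of the 82 estimates passed the test after adjustment over all genes.

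All 26 mitotic members had their highest mean in wildtype livers on CDAHFD. Of the S-phase members, 13 of 15 had it in homozygous livers and 2 (Ccne2 and E2f1) in heterozygous livers. Chow livers had the lowest mean for all 41. The neighbours in these orders, other than chow, did not pass a test against each other.

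Among S-phase members the largest homozygous estimate was that of Cdc6, 0.68 ± 0.40 (adjusted p = 0.619). Mcm6 had 9.41 to 31.1 CPM (median 17.9) in heterozygous and 13.7 to 32.5 (median 19.5) in homozygous livers, which overlap the wildtype range of 9.07 to 24.4 (homozygous log2 0.27 ± 0.24). All 8 licensing genes were above 0 in both knockouts, with medians of 0.29 and 0.14. Mcm7, the member not called for the diet, had 14.9 to 27.8 CPM (median 20.6) in heterozygous and 16.2 to 28.6 (median 21.8) in homozygous livers (0.21 ± 0.13 for homozygous, adjusted p = 0.632). Tyms had the lowest p of the members for homozygous against heterozygous livers, with 7.29 to 12.5 CPM (median 9.66) against 6.36 to 10.2 (median 8.36), an estimate of 0.22 ± 0.12 with an edgeR adjusted p = 0.715.

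Among mitotic members the lowest p for homozygous against wildtype was that of Prc1, which bundles the microtubules of the central spindle. Prc1 had 0.783, 0.780, 1.44, 1.36 and 1.11 CPM on chow and 3.59 to 9.87 (median 5.67) in wildtype livers on CDAHFD. It had 2.28 to 9.52 (median 5.00) in heterozygous and 1.72 to 5.66 (median 4.02) in homozygous livers. The homozygous and wildtype ranges on CDAHFD overlapped, and the estimate was -0.67 ± 0.30 (edgeR unadjusted p = 0.0324, adjusted p = 0.439). For heterozygous against wildtype livers the lowest p was that of Cenpa, with 7.79 to 18 CPM (median 11.9) against 11.9 to 22 (median 15.6). Its estimate was -0.34 ± 0.16 (edgeR unadjusted p = 0.0367, adjusted p = 0.569). Mki67 had 7.49 to 35.3 CPM (median 14.7) in heterozygous and 9.37 to 26.1 (median 20.1) in homozygous livers, against 16.5 to 36.9 in wildtype livers, with estimates of -0.46 ± 0.29 and -0.35 ± 0.29. Cdc20 had estimates of -0.49 ± 0.38 and -0.52 ± 0.37, and Ccnb2 of -0.37 ± 0.27 and -0.39 ± 0.26. None of these estimates passed after adjustment over all genes.

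Single livers carried part of these medians. Without heterozygous liver 4 the mitotic median for heterozygous against wildtype livers was -0.59, and 14 of 26 members had an unadjusted edgeR p under 0.05, still with 0 called. Over all genes that share was 15.7% in the same fit, against 8.44% with all livers. Without wildtype CDAHFD liver 5 the mitotic medians were -0.20 for homozygous and -0.23 for heterozygous livers. Without homozygous liver 4 the S-phase median for homozygous livers was 0.10, with 12 of 15 above 0. Without wildtype CDAHFD liver 1 the S-phase medians were 0.15 for homozygous and 0.02 for heterozygous livers, the latter with 10 of 15 above 0. Without heterozygous liver 3 the S-phase median for heterozygous livers was 0.01, with 8 of 15 above 0, and without heterozygous liver 5 it was 0.05, with 11 of 15. It was 0.16 or 0.17, with 14 of 15 above 0, without heterozygous liver 1 or 2 or wildtype CDAHFD liver 3 or 4. Within the series of 17 libraries the mitotic medians were -0.29 (homozygous) and -0.25 (heterozygous), and within the series of 9 they were -0.53 and -0.52. The S-phase medians were 0.24 and 0.08 in the larger series and 0.08 and 0.13 in the smaller.

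The balance of the programmes was summarised in each library as the mean log2 CPM of the 15 S-phase members minus that of the 26 mitotic members. No p is given because the members were chosen with results known. The balance, in its size and in its change between groups, depends on which genes were listed and how they were averaged. It was 1.36 ± 0.36 (SD, n = 5) on chow and 0.51 ± 0.50 (n = 6) in wildtype livers on CDAHFD, where the mitotic mean had gone from 0.53 ± 0.30 to 2.49 ± 0.50 and the S-phase mean from 1.89 ± 0.15 to 3.00 ± 0.35. In heterozygous livers it was 1.03 ± 0.53 (n = 7). In homozygous livers it was 1.09 ± 0.48 (n = 8). The 5 chow livers had 1.78, 1.41, 1.61, 0.91 and 1.09. The wildtype CDAHFD livers ranged from -0.23 to 1.32 (median 0.49), the heterozygous from -0.07 to 1.44 (median 1.24) and the homozygous from 0.26 to 1.64 (median 1.00). All 4 groups overlapped.

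**Figure D4:**
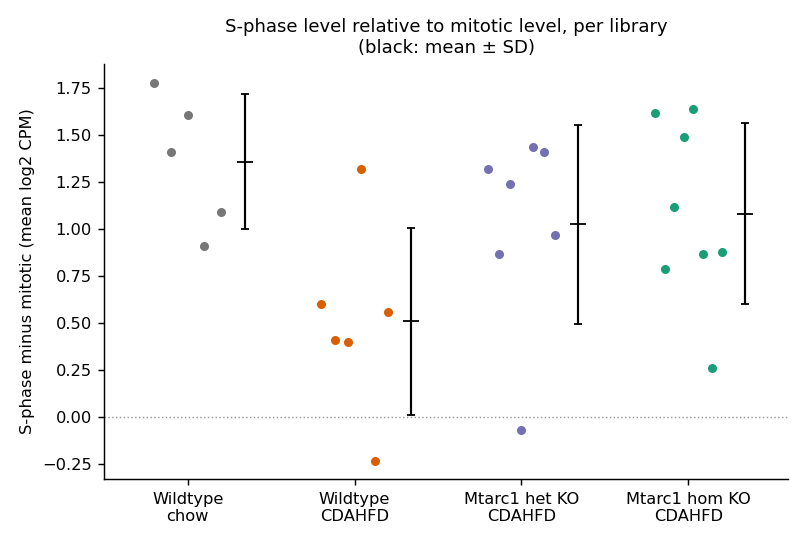
Mean log2 CPM of S-phase members minus that of mitotic members in each library (points) by group, with mean ± SD in black. Wildtype livers on CDAHFD average 0.51 against 1.36 on chow, 1.03 in heterozygous and 1.09 in homozygous livers, and the points of the 4 groups overlap.

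The programmes did not always peak in the same liver. Heterozygous liver 4 was the highest of its group for 26 of 26 mitotic members (mitotic mean log2 CPM 3.14, the group's others at most 2.51), while its S-phase mean of 3.07 was the group's median. Heterozygous liver 3 was the highest of that group for 14 of 15 S-phase members (S-phase mean 3.75). Homozygous liver 4 was the highest of its group for 14 of 15 S-phase members (3.98), and homozygous liver 6 for 13 of 26 mitotic members. In wildtype livers on CDAHFD, liver 5 was the highest for 15 mitotic members and for 1 S-phase member. Both programmes were high in wildtype CDAHFD liver 3, the highest of its group for 8 S-phase and 11 mitotic members. Wildtype CDAHFD liver 4 was the highest for 6 S-phase members and the lowest for 8 mitotic members. Wildtype CDAHFD liver 1 was the lowest of its group for 14 S-phase and 18 mitotic members. On chow, liver 4 was the highest for 16 mitotic members.

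**Figure D5:**
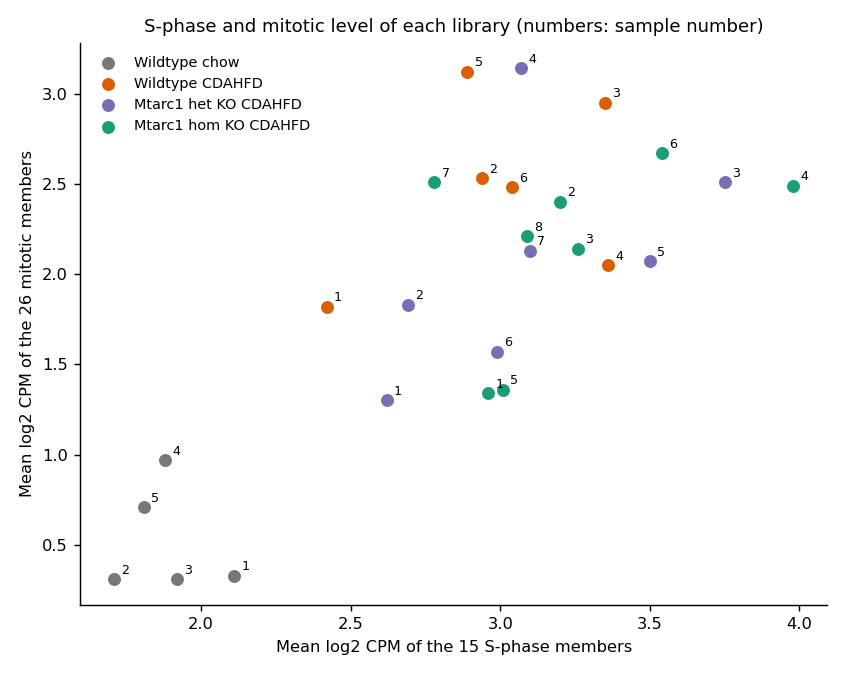
Mean log2 CPM of the 15 S-phase members (x axis) and of the 26 mitotic members (y axis) in each of the 26 libraries, coloured by group and numbered by sample. The 5 chow livers lie at the lower left, at or below 2.11 and 0.97, heterozygous liver 4 and wildtype CDAHFD liver 5 lie highest, and homozygous liver 4 lies farthest right.

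The mitotic members spread more between livers than the S-phase members did. The median coefficient of variation over members was 36.8% for mitotic and 22.3% for S-phase members in wildtype livers on CDAHFD. The same medians were 50.9% and 34.2% in heterozygous and 37.0% and 31.4% in homozygous livers. Ube2c varied most in heterozygous livers, at 81.5%, with 17 CPM in liver 4 and 2.84 to 6.82 in the others. Cdc6, at low counts, had the largest value of the S-phase members in each CDAHFD group, from 44.7% to 74.4%.

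Other genes of the same programmes were listed by role, also with earlier results of these data known. On the diet in wildtype livers they behaved as follows. Of 28 other S-phase genes, against 14.8% of all genes that rose and 12.2% that fell, 13 rose and 1 fell. Their median log2 fold change was 0.57. The risers with the lowest p were Lig1, which joins Okazaki fragments (1.37 ± 0.24), and the DNA repair gene Brca1 (1.42 ± 0.27). The one that fell was Tk1, thymidine kinase, from 31.3 ± 4.05 CPM (SD, n = 5) to 18.8 ± 4.88 (n = 6), by 0.74 on the log2 scale (SE 0.23, edgeR adjusted p = 0.0176). Of 38 other mitotic genes 33 rose and 1, Pttg1 (securin), fell, by 0.43 (SE 0.10), and the median was 1.87. The lowest p were those of Racgap1, of the central spindle (2.58 ± 0.35), the spindle gene Dlgap5 (3.07 ± 0.42) and the kinetochore gene Spc25 (1.4 ± 0.21). Mybl2, which encodes B-MYB, was not called, with 1.335 to 2.324 CPM on chow and 1.078 to 1.849 in wildtype livers on CDAHFD. Between genotypes none of these 66 genes was called by edgeR, DESeq2 or limma voom. Those at an unadjusted edgeR p under 0.05 numbered 0 for homozygous and 1 for heterozygous livers against wildtype, and 1 between the knockouts. The shares of all genes were 9.97%, 8.44% and 7.13%. The lowest p for homozygous livers were those of Cdc7, a kinase of origin firing (-0.44 ± 0.21, edgeR adjusted p = 0.502), and the spindle gene Aspm (-0.59 ± 0.29, edgeR adjusted p = 0.522). For heterozygous livers they were those of Cdc7 (-0.34 ± 0.22) and Pttg1 (-0.24 ± 0.10), and between the knockouts of Rfc4, of the clamp loader (0.29 ± 0.17), and Pttg1 (0.21 ± 0.09). For homozygous against wildtype livers 25 of 28 S-phase estimates were above 0 (median 0.15) and 34 of 38 mitotic estimates below 0 (median -0.24). For heterozygous livers the counts were 17 of 28 above 0 (median 0.03) and 34 of 38 below 0 (median -0.28). Of all genes, 51.6% and 48.7% had estimates above 0 in these comparisons, in the same order, and 48.4% and 51.3% below.

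Of the regulators upstream, 2 of 8 G1 cyclins and kinases rose on the diet. They were Ccnd1, the cyclin that starts G1 progression (97.5 ± 20.2 to 206 ± 68.3 CPM, log2 1.08 ± 0.21), and the growth factor-induced transcription factor gene Myc (1.45 ± 0.39). Of 15 RB, E2F and DREAM factors measured, 3 rose and 2 fell, shares near those of all genes (14.8% and 12.2%). By limma voom 1 of them rose and 2 fell. The 3 lowest p were those of Rbl1, which encodes the RB-family protein p107 (1.11 ± 0.21), the E2F partner Tfdp2 (-0.38 ± 0.13) and E2f2 (0.76 ± 0.27). Of 5 measured CDK inhibitors 2 rose, Cdkn1a, the p53 target p21 (5.24 ± 2.91 to 18.2 ± 8.61 CPM, log2 1.80 ± 0.42), and Cdkn2c (0.52 ± 0.15). Of 10 measured growth signal genes 4 rose and 1 fell by edgeR, and 2 rose and 1 fell by limma voom. The EGF-receptor ligand genes Ereg and Tgfa rose by 1.49 ± 0.36 and 0.67 ± 0.18, and Areg by 4.41 ± 1.21 from levels on chow of at most 0.0534 CPM. Egfr, their receptor, fell by 1.42 (SE 0.41). No gene of these 4 lists was called between genotypes by edgeR, DESeq2 or limma voom. At an unadjusted edgeR p under 0.05 stood 3 G1 genes and 2 growth signal genes for homozygous livers and 2 G1 genes for heterozygous livers. Over all genes the shares were 9.97% and 8.44%. The lowest p for homozygous livers were those of Cdk2 (0.25 ± 0.10), Tfdp2 (0.21 ± 0.11), Cdkn2c (-0.24 ± 0.13) and Ereg (-0.65 ± 0.29), and for heterozygous livers those of Ccnd2 (-0.37 ± 0.15), E2f6 (0.26 ± 0.13), Cdkn1b (0.12 ± 0.10) and Tgfa (0.30 ± 0.16). Between the knockouts they were those of Cdk2 (0.25 ± 0.09), E2f6 (-0.25 ± 0.12), Cdkn1a (-0.54 ± 0.33) and Tgfa (-0.32 ± 0.15). Myc, chosen after its values were seen, had estimates of -0.74 ± 0.32 in homozygous livers (edgeR adjusted p = 0.432) and of -0.71 ± 0.33 in heterozygous livers (adjusted p = 0.569).

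Some markers of other cells were called on the diet too, against 14.8% of all genes that rose and 12.2% that fell. Of 10 macrophage markers 8 rose, none was at 0 in any group, and their summed level was 199 to 394 CPM on chow, 468 to 867 in wildtype, 435 to 650 in heterozygous and 339 to 694 in homozygous livers on CDAHFD. Of 8 hepatocyte markers 3 fell. Of 8 stellate cell markers 3 rose (summed 226 to 279 CPM on chow, 327 to 531 in wildtype livers on CDAHFD), of 10 T, NK and B cell markers 1 rose, and of 6 endothelial markers 0 were called (3 above and 3 below 0, with 0 at an unadjusted edgeR p under 0.05). Both measured neutrophil markers, of 6 listed, rose by edgeR but were not called by limma voom, and Ly6g was at 0 on chow. Of 5 bile duct markers 1 rose, and of 3 measured erythroid markers 1 rose and 2 fell. The erythroid rise was not called by limma voom. For homozygous against wildtype livers on CDAHFD, edgeR called no marker. Estimates were below 0 for 9 of 10 macrophage and 8 of 8 stellate cell markers. Of these markers 4 and 6 had an unadjusted edgeR p under 0.05, against 9.97% of all genes. DESeq2 called 2 macrophage markers (Gpnmb and Trem2) and 1 stellate cell marker (Acta2) lower. Heterozygous liver 4, highest in mitotic members, had the highest macrophage sum of its group, 650 CPM, while homozygous liver 4, highest in S-phase members, had the lowest of its group, 339 CPM. Wildtype CDAHFD liver 5, with the highest mitotic mean of its group, had a macrophage sum of 495 CPM, the second lowest of its group. Homozygous liver 6, with the highest mitotic mean of its group, had 471 CPM. That was above the group's median of 449 and below the 694 of homozygous liver 2. Some other livers were high or low in both. Wildtype CDAHFD liver 3 had the highest macrophage sum of all libraries, 867 CPM, with a mitotic mean log2 CPM of 2.95. Chow liver 4 was the highest of its group in both (394 CPM and 0.97), and heterozygous liver 1 the lowest of its group in both (435 CPM and 1.3). The mitochondrial share of counts was 8.64 to 16.25% on chow and 7.67 to 13.01% in wildtype livers on CDAHFD. The part of these in the members' differences was not tested.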

How the data were processed

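The authors deposited a table of estimated counts per gene, which need not be whole (54.4% of values above 0 were), for 26 libraries. Total RNA was prepared with the NEBNext Ultra II kit, per the labels' protocols. The mouse build GRCm39 (mm39), cutadapt 3.5 and Salmon 1.4.0 are named in the submitters' processing notes. How transcripts were summed to genes and whether strand was used are not given in the sources used here. Reads of near-identical gene copies may have been split between them, and antisense partners were not checked.

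Columns were matched to libraries by name (0 columns unused), and symbols were matched by gene ID (92.5% of IDs). Estimated counts were rounded. edgeR 4.0.16 in R 4.3.3 (filterByExpr, TMM, robust quasi-likelihood F test, Benjamini-Hochberg over 17104 genes, threshold 0.05) was fitted to all 26 libraries in 4 groups, after a test on simulated data. Log2 CPM used a prior count of 2. Pairs of libraries within a group (74) differed by a chi-square of 16.9 to 129.5 per degree of freedom, far above sampling noise. Members, lists and tests were chosen with earlier results of these data known. Full values are given for the 2 most abundant members of each role, members whose diet call differed from their role's majority, and the lowest p in each comparison. In other lists the called genes of lowest p, at most 3, are named, except 1 gene that is not reported here. Lin54 was not analysed here. Genes named beyond this rule were chosen after their values were seen. Alternatives were DESeq2 1.42.0, limma 3.58.1 voom, other scalings, no filter, the replicate number as a block, each number series, and each library left out.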

Additional observations from a re-analysis of the deposited data

Results flagged for a closer look

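Values are listed here when 1 library stood far from the rest of its group, by Dixon's ratio at the 95% level, which chance passes in about 1 of 20 groups. Of 176 groups of values tested 13 were listed, and members share libraries, so these are not separate events. Heterozygous liver 4 was high for 6 mitotic members, in CPM: Plk1 at 12.9 (others 2.27 to 5.79), Cenpe at 9.97 (1.83 to 5.31), Cenpf at 8.97 (2.36 to 4.08), Kif23 at 7.94 (2.19 to 3.84), Nusap1 at 6.84 (1.79 to 3.77) and Ube2c at 17 (2.84 to 6.82). Its S-phase minus mitotic difference was -0.07, against 0.865 to 1.44 in the other 6 livers. Homozygous liver 4 was high for 3 helicase genes, Mcm2 at 23.6 CPM (others 8.59 to 15.7), Mcm3 at 30.9 (12.2 to 20.9) and Mcm4 at 19.5 (7.58 to 12). In wildtype livers on CDAHFD, Ube2c stood at 16.9 CPM in liver 5 (others 4.83 to 8.42) and Rrm2 at 13.3 in liver 3 (8.43 to 9.91). On chow, Ccne1 stood at 1.38 CPM in liver 1 (0.251 to 0.481), the only chow liver of the smaller number series.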

How the results depend on the processing

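For the diet, 38 to 40 members were called with any 1 library left out, 40 by DESeq2 and 39 by limma voom (Cdc6 lost). Within the series of 17 libraries 36 were called (Ccne2, Cdc6, Kif23 and Tyms lost), and within the series of 9, with 1 chow library, 2. Scaling to raw totals moved the median of all genes from -0.01 to 0.22, with 40 members called. It moved the genes that rose and fell from 2537 and 2093 to 5369 and 703. Among all genes tested, 2648 rose by DESeq2, 2409 by limma voom and 2129 to 2529 with 1 library left out. Over all genes the diet count of 4630 was 2264 and 418 within the larger and smaller series. Between genotypes 0 members were called in each setting run. Over all genes, the single call for homozygous against wildtype livers was 61 by DESeq2, 2 within the series of 9 and 1 to 4 with 1 library left out. The S-phase minus mitotic difference changed by -0.85 on the diet (-1.01 to -0.70 with 1 library left out, -1.31 within the series of 9). Against wildtype livers it changed by 0.57 for homozygous (0.43 to 0.74) and by 0.52 for heterozygous livers (0.37 to 0.70). For homozygous against heterozygous livers it changed by 0.06 (-0.12 to 0.18). With the median over members in place of their mean, the changes were -0.65, 0.45, 0.36 and 0.09. Deviations of same-numbered samples of 2 groups correlated at -0.37 to 0.32. A sample's best match was its own number in 2 of 5 pairs for the diet. For homozygous and heterozygous against wildtype livers this held in 2 of 6 and 4 of 6 pairs, and between the knockouts in 3 of 7. So few pairs cannot settle whether the numbers pair samples. The replicate block was fitted to the 2 groups compared and only to samples whose number occurs in both. There 38 of 40 members tested were called for the diet, where 2025 of all 15866 genes tested rose, and 0 between genotypes. For homozygous against wildtype livers that fit left out homozygous livers 7 and 8. In it 12 of 41 members (8 S-phase and 4 mitotic) had an unadjusted edgeR p under 0.05, against 1 in the main fit. Over all genes the shares were 10.4% and 9.97%. The block and the smaller set of samples cannot be told apart here. Over the same samples, with no block fitted, the S-phase minus mitotic changes were -0.86, 0.75, 0.52 and 0.09, in the order above. Members at few counts on chow (such as Ttk, Melk, Cdc6, Bub1 and, down to 5 counts, Ccne1) are limited by depth.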
